A study of Mus musculus with 12 samples.

Results

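The dystrophin glycoprotein complex was examined through 8 genes chosen by name, Dmd, Utrn, Dag1, Sgca, Sgcb, Sgcd, Sntb1, and Dtna, of the 55536 genes in the deposited table of raw read counts. All 8 passed the filter on low counts, which kept 14499 genes. C2C12GFP cells, a mouse myoblast line that carries green fluorescent protein and fuses into myotubes in low-serum medium, were differentiated on uncoated plates (Control) or on Collagen I, on fibronectin, or on Geltrex, a basement membrane extract made mainly of laminin, Collagen IV, and entactin. RNA-seq was performed on 3 samples in each of the 4 groups. The labels do not say whether the 3 samples of a group came from separate cultures, so the p-values below measure only the spread between these samples, which may be technical. All samples come from 1 cell line, and every group received the same differentiation medium.

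In muscle, the complex joins the actin cytoskeleton to laminin outside the fiber. Dystrophin binds actin and the tail of dystroglycan, dystroglycan binds laminin through sugar chains built by dedicated enzymes, the sarcoglycans brace dystroglycan in the membrane, and syntrophins and dystrobrevins assemble signaling proteins at dystrophin. Utrophin is the close relative of dystrophin that is prominent before muscle matures and at the neuromuscular junction, and loss of dystrophin or of a sarcoglycan causes muscular dystrophy.

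The 12 libraries held between 22520404 and 27351766 counted reads, and levels are given as CPM, the reads of a gene scaled to a common library size, with TMM factors, a normalization for library composition. A gene was called when its p in the quasi-likelihood F test of edgeR, adjusted by the Benjamini-Hochberg method, was at most 0.05. The labelled cell type carried its markers, as all 11 myotube markers on the list (Ckm, Acta1, Myog, and others) were tested. Their summed level was 7975 to 9099 CPM in Control, 8190 to 9097 CPM on Collagen I, 2554 to 2992 CPM on fibronectin, and 3473 to 3818 CPM on Geltrex. All 11 were called lower on fibronectin and on Geltrex than in Control, and all 6 proliferation markers were called higher. Of the 5 myoblast markers, only 1 was called against Control on each of these coatings, and it was higher. The 5 summed to 75.6 to 97.8 CPM in Control, 69.8 to 84.2 on Collagen I, 105.9 to 121.7 on fibronectin, and 132.5 to 136.0 on Geltrex. In these bulk samples, fewer myotubes and less RNA per myotube cannot be told apart. The 3 adipocyte markers summed to at most 0.429 CPM and were not tested. The 5 fibroblast or osteoblast markers summed to 35.7 to 41.6 CPM in Control, 21.98 to 31.7 on Collagen I, 32.6 to 38.9 on fibronectin, and 41.3 to 44.1 on Geltrex, with 3 of them, Thy1 among these, at no more than 3 counts in every library. Pdgfra, the only one tested, was lower on Collagen I, by 0.45 against fibronectin (adjusted p = 0.00623) and by 0.66 against Geltrex (adjusted p = 0.000445), and its part in the results below was not tested.

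Of the 8 genes, Dmd and Sgca had clearly lower levels on fibronectin and Geltrex than on uncoated or Collagen I-coated plates, so the sequence before their annotated starts is shown first. The windows are from RefSeq (GRCm38.p6) and hold the 250 bases before a start, in the direction of transcription, with motif matches in capitals. Dmd, among the longest of all genes, lies at chrX:82948870-85206141 on the plus strand, and its first annotated start is at the lower coordinate. The window before that start, chrX:82948620-82948869, reads as follows.
Dmd, first start: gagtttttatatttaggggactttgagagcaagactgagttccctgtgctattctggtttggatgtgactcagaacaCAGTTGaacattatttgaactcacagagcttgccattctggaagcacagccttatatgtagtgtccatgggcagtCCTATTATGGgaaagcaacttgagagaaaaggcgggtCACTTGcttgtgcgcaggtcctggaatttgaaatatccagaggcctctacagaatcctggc
The capitals mark 2 E-boxes (CANNTG, the motif bound by myogenic factors of the MyoD family), 173 and 61 bases before this RefSeq start, and 1 CArG box (the motif of serum response factor), 98 bases before it. In GENCODE the coding full-length transcript starts slightly further along, at position 82948903. Of the 14 annotated Dmd transcripts, 5 start between positions 85048295 and 85048413, 2099.4 kb further along, and encode at most 617 residues against 3678 for the full-length protein. The window before these short transcripts, chrX:85048045-85048294, holds none of the motifs searched.
Dmd, short-transcript start: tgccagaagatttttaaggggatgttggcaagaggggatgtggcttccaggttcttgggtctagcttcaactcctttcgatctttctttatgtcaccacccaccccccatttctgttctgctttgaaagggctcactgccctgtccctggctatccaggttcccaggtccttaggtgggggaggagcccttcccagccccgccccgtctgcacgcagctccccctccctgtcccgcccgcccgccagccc
Sgca lies at chr11:94962791-94976327 on the minus strand, and the window before its start, chr11:94976328-94976577, holds 1 E-box, 86 bases before the start.
Sgca start: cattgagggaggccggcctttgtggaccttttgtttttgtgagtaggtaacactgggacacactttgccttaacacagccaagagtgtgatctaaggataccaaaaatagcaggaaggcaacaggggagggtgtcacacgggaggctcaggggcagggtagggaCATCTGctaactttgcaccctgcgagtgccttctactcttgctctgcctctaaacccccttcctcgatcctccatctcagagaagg
Motifs were searched on both strands, and an E-box occurs in 66.2% of 32817 promoter windows of this length, a CArG box in 1.47%, and the MCAT motif (CATTCC, absent from these 3 windows) in 12.6%. E-boxes also occurred before members that did not fall in this way, with 7 before Utrn, 2 before Sgcd, and 1 in each window of Dag1. The window of Sgcb held 0. The matches describe the letters only. The deposited counts are per gene, so reads from the full-length and the short Dmd transcripts cannot be told apart.

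Dystrophin transcripts fell on fibronectin and Geltrex. Dmd (ENSMUSG00000045103), which encodes the actin-binding protein that names the complex, was at 10.7, 21.5, and 15.2 CPM in Control replicates 1 to 3 and at 15.8, 16.5, and 6.56 CPM on Collagen I. On fibronectin it was at 5.61, 4.56, and 2.64 CPM, and on Geltrex at 3.03, 2.18, and 2.84 CPM. Every fibronectin and Geltrex sample lay below every Control and Collagen I sample, and the third Collagen I sample lay nearest to them. These low levels rest on 53 to 151 reads per library on the 2 coatings, against 152 to 586 reads elsewhere. Against Control, Dmd fell by 1.89 on the log2 scale on fibronectin (SE 0.33, adjusted p = 0.000464), which is 3.70-fold, and by 2.56 on Geltrex (SE 0.35, adjusted p = 3.83e-05), which is 5.89-fold. Collagen I exceeded fibronectin 3.03-fold (log2 difference 1.60, SE 0.33, adjusted p = 0.00122) and Geltrex 4.83-fold (log2 difference 2.27, adjusted p = 0.000128). Collagen I and Control did not differ beyond their spread (log2 difference -0.29, SE 0.30, adjusted p = 0.678), nor did fibronectin and Geltrex (0.67, SE 0.38, adjusted p = 0.232). The level order was therefore Control, Collagen I, fibronectin, and Geltrex, with a called step only between Collagen I and fibronectin.

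**Figure D1:**
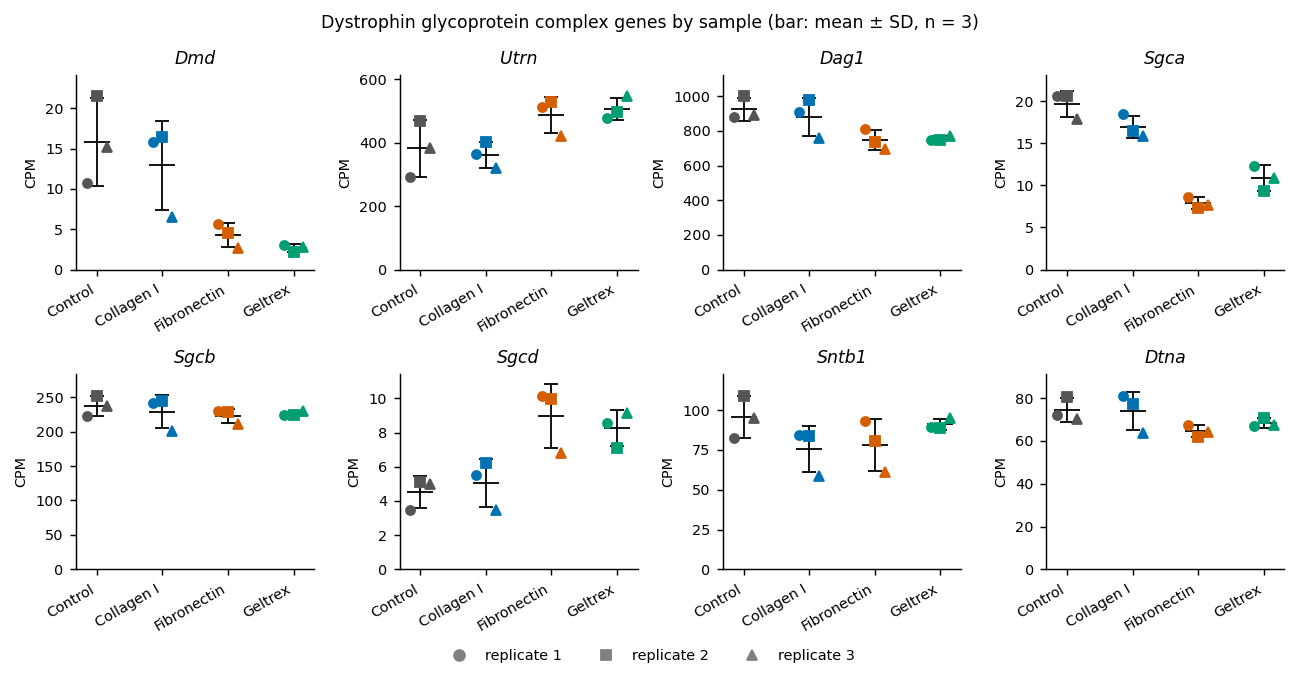
CPM of each gene (y axes, from 0) in the 3 samples of each coating, with the mean and SD as bars and 1 marker shape per replicate number. For Dmd and Sgca the fibronectin and Geltrex samples lie below all Control and Collagen I samples, for Sgcd they lie above, and for Sgcb, Sntb1, and Dtna the coatings are close.

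Utrophin went the other way by a much smaller amount. Utrn (ENSMUSG00000019820, chr10:12382188-12869365) was at 292, 470, and 384 CPM in Control and at 366, 401, and 319 CPM on Collagen I. It was at 512, 528, and 422 CPM on fibronectin and at 479, 496, and 546 CPM on Geltrex. The Geltrex samples lay above all Control and Collagen I samples, whereas the third fibronectin sample lay below the second Control sample. Utrn rose on Geltrex by 0.41 on the log2 scale against Control (SE 0.14, adjusted p = 0.0349), and the fibronectin difference of 0.35 did not pass (SE 0.14, adjusted p = 0.0681). Collagen I was lower than fibronectin by 0.43 (adjusted p = 0.0215) and lower than Geltrex by 0.49 (adjusted p = 0.0133). The Geltrex call against Control was lost when Control replicate 1, Control replicate 3, or any Geltrex sample was left out, with log2 values between 0.25 and 0.60. Leaving out Control replicate 2 or fibronectin replicate 3 brought the fibronectin difference past the threshold instead. The call between Collagen I and fibronectin was lost without Collagen I replicate 1 or 3 or fibronectin replicate 1 or 2, and the call between Collagen I and Geltrex without Collagen I replicate 3 or Geltrex replicate 3.

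Reads per kilobase of the longest transcript, 14.91 kb for Dmd and 12.38 kb for Utrn, allow the paralogs to be compared within a library. Utrn stood at 26.3 to 32.9 times the Dmd level in Control, 27.9 to 58.6 times on Collagen I, 109.9 to 192 times on fibronectin, and 190.2 to 274 times on Geltrex. The mean log2 ratio of Dmd to Utrn was -4.89 ± 0.16 in Control, -5.18 ± 0.60 on Collagen I, -7.16 ± 0.41 on fibronectin, and -7.84 ± 0.26 on Geltrex (SD, n = 3 each). The fibronectin and Geltrex libraries did not overlap with those of Control or Collagen I. Each of these 4 comparisons gave an exact permutation p of 0.1, two-sided, which is the smallest that 3 samples against 3 allow and 0.15 after Benjamini-Hochberg adjustment over 6 comparisons. Fibronectin against Geltrex gave an exact permutation p of 0.2, and Collagen I against Control 0.7.

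**Figure D2:**
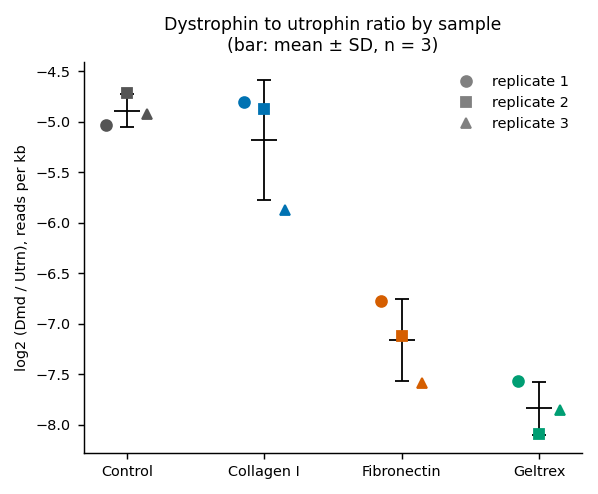
Log2 ratio of Dmd to Utrn reads per kilobase (y axis) in each sample of the 4 coatings, with the mean and SD as bars. Fibronectin and Geltrex samples sit between -8.10 and -6.78, below the Control and Collagen I samples between -5.87 and -4.72.

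Within groups, the samples differed in a way that touches several of these genes. A long-transcript index was computed for each library as the median log2 deviation of 753 genes with a longest transcript of at least 8 kb, minus that of 4406 genes of 1.5 to 3 kb. Its mean was -0.14 in Control, -0.22 on Collagen I, 0.24 on fibronectin, and 0.11 on Geltrex, so it also differed between the coatings. Across the 12 libraries, and after subtraction of each group's mean, it correlated with Utrn (Pearson r 0.95), Sgcd (0.94), Sgcb (0.92), Sntb1 (0.92), Dmd (0.91), Dag1 (0.84), Dtna (0.58), and Sgca (0.091). These correlations are descriptions, since all genes share the libraries and Dmd and Utrn are themselves long. Control replicate 1 and the third samples on Collagen I and fibronectin were low on the index and low for Dmd, Utrn, and Sgcd. With the index added to the model as a covariate, an analysis chosen after the data were seen, Dmd fell further, by 3.06 on fibronectin (adjusted p = 9.55e-08) and by 3.30 on Geltrex (adjusted p = 4.17e-09) against Control. The Utrn differences against Control became -0.13 on fibronectin (adjusted p = 0.329) and 0.091 on Geltrex (adjusted p = 0.356). Those of Collagen I became 0.19 against fibronectin and -0.037 against Geltrex, and none of these was called. Between fibronectin and Geltrex, Utrn went from -0.058 without the covariate (adjusted p = 0.81) to a called -0.22 with it (adjusted p = 0.0159). The index and the coating are partly confounded, so the share of the Utrn difference that goes with each cannot be told apart. The same limit holds for Dmd and for every other gene given with this covariate below, whether its call was gained, lost, or kept.

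**Figure D3:**
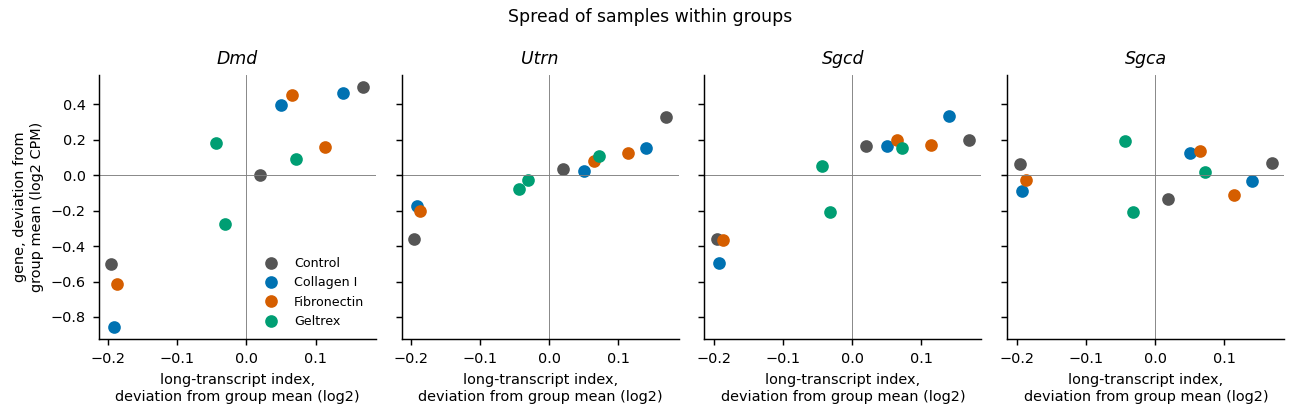
Deviation of Dmd, Utrn, Sgcd, and Sgca from the group mean (y axis, log2 CPM) against the deviation of the long-transcript index (x axis, log2), 1 point per library, colored by coating. Dmd, Utrn, and Sgcd run along the index, and Sgca does not.

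Dystroglycan, the laminin receptor at the center of the complex, was abundant everywhere and slightly lower on fibronectin and Geltrex. Dag1 (ENSMUSG00000039952, chr9:108204634-108263958) was at 881, 999.6, and 892 CPM in Control and at 906, 975, and 760 CPM on Collagen I. It was at 808, 736, and 696 CPM on fibronectin and at 746, 745, and 770.1 CPM on Geltrex. Both of these coatings lay below all Control samples, but the third Collagen I sample lay among them. Against Control, Dag1 fell by 0.31 on fibronectin (SE 0.096, adjusted p = 0.0224) and by 0.29 on Geltrex (SE 0.096, adjusted p = 0.0267), on the log2 scale. The Collagen I differences of 0.24 against fibronectin (adjusted p = 0.0536) and 0.22 against Geltrex (adjusted p = 0.0775) did not pass. The Geltrex call was lost without Control replicate 2 or any Geltrex sample, and the fibronectin call without Control replicate 2 or fibronectin replicate 2 or 3. With the long-transcript index as a covariate, both falls were larger (0.55 and 0.45), and Dag1 on Collagen I was called higher than on either coating.

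The 3 sarcoglycans behaved in 3 different ways. Sgca (ENSMUSG00000001508), the sarcoglycan restricted to striated muscle, was at 20.6, 20.6, and 17.9 CPM in Control and at 18.4, 16.5, and 15.8 CPM on Collagen I. It was at 8.65, 7.28, and 7.73 CPM on fibronectin and at 12.3, 9.31, and 10.9 CPM on Geltrex. The fibronectin samples lay below the Geltrex samples, and those below all Control and Collagen I samples. Sgca fell 2.49-fold on fibronectin against Control (log2 difference -1.32, SE 0.12, adjusted p = 8.91e-07) and 1.81-fold on Geltrex (-0.86, SE 0.12, adjusted p = 4.16e-05). Collagen I exceeded fibronectin by 1.10 (adjusted p = 4.54e-06) and Geltrex by 0.64 (adjusted p = 0.00065). Sgca was also the only one of the 8 genes called between fibronectin and Geltrex (-0.46, SE 0.12, adjusted p = 0.017), a call that was lost without fibronectin replicate 2 or Geltrex replicate 1 or 3. The index covariate left the Sgca differences from Control at -1.34 and -0.88.

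Sgcd (ENSMUSG00000020354, chr11:46896253-47988969), which encodes the delta subunit, went in the opposite direction from a low level. It was at 3.46, 5.14, and 5.01 CPM in Control and at 5.50, 6.21, and 3.45 CPM on Collagen I. It was at 10.1, 9.96, and 6.84 CPM on fibronectin and at 8.54, 7.13, and 9.15 CPM on Geltrex, above all Control and Collagen I samples. Against Control, Sgcd rose by 0.98 on fibronectin (SE 0.21, adjusted p = 0.00263) and by 0.86 on Geltrex (SE 0.22, adjusted p = 0.00598), which is 1.98-fold and 1.82-fold. Collagen I was lower than fibronectin by 0.82 (adjusted p = 0.00562) and lower than Geltrex by 0.70 (adjusted p = 0.0178), and the Geltrex call was lost without Collagen I replicate 3 or Geltrex replicate 1 or 3. With the long-transcript index as a covariate, no Sgcd comparison was called, with 0.25 on fibronectin (adjusted p = 0.409) and 0.39 on Geltrex (adjusted p = 0.0638) against Control.

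Sgcb (ENSMUSG00000029156, chr5:73632749-73647790), which encodes the beta subunit, was nearly level. It ranged from 222 to 252 CPM in Control, 201 to 244 CPM on Collagen I, 212 to 229 CPM on fibronectin, and 223 to 229 CPM on Geltrex. The 4 ranges overlapped, and the differences from Control were -0.048 on Collagen I (adjusted p = 0.814), -0.086 on fibronectin (SE 0.084, adjusted p = 0.465), and -0.070 on Geltrex (SE 0.084, adjusted p = 0.561). With the long-transcript index as a covariate, Sgcb was called lower than Control on fibronectin (-0.30, adjusted p = 0.0107) and on Geltrex (-0.21, adjusted p = 0.0156).

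Sntb1 and Dtna, for proteins that bind to dystrophin inside the cell, did not pass in any comparison in the model of the 4 groups. Sntb1 (ENSMUSG00000060429, chr15:55636388-55906949), a syntrophin that docks signaling proteins on dystrophin, was at 82.4, 109, and 95.2 CPM in Control and at 84.3, 84.0, and 58.9 CPM on Collagen I. It was at 93.3, 80.8, and 61.0 CPM on fibronectin and at 89.5, 88.5, and 95.0 CPM on Geltrex. The third Collagen I and fibronectin samples were low, and all Geltrex samples lay above all Collagen I samples. The difference of -0.33 between Collagen I and Control (SE 0.15) was the only one of the 8 genes at an unadjusted p under 0.05 in that comparison and did not pass (adjusted p = 0.314). Dtna (ENSMUSG00000024302, chr18:23415135-23659715), which encodes alpha-dystrobrevin, was at 72.2, 80.6, and 70.1 CPM in Control and at 80.9, 77.2, and 63.8 CPM on Collagen I. It was at 67.3, 62.0, and 64.3 CPM on fibronectin and at 66.9, 70.9, and 67.4 CPM on Geltrex. The fibronectin samples lay just below the Control samples, with a log2 difference of -0.20 that did not pass (SE 0.091, adjusted p = 0.101). With the index covariate, Sntb1 was called lower than Control on fibronectin (-0.81, adjusted p = 7.98e-05) and Geltrex (-0.42, adjusted p = 0.00289), and Dtna on fibronectin (-0.35, adjusted p = 0.0293). An antisense gene overlaps 0.53% of the exon bases of Dtna, the only such overlap among the 8 genes.

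**Figure D4:**
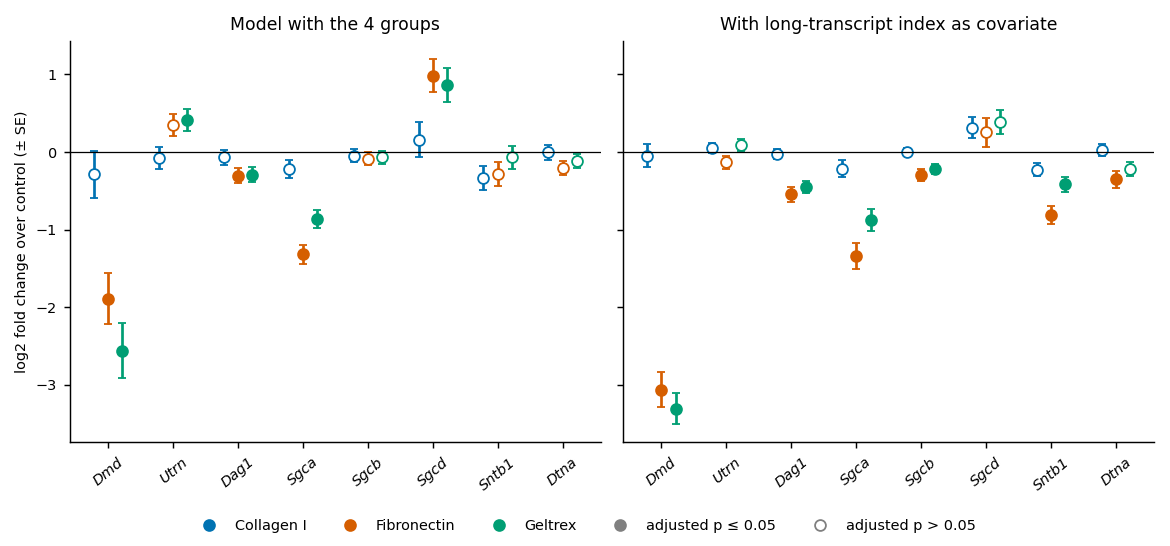
Log2 fold change over Control (y axis, with SE) of each gene on Collagen I, fibronectin, and Geltrex, in the model of the 4 groups (left) and with the long-transcript index as a covariate (right). Filled points have an adjusted p of at most 0.05. Dmd, Dag1, and Sgca are below 0 with filled points on fibronectin and Geltrex on both sides, whereas Sgcd is filled on the left only.

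Counted over the 8 genes, Collagen I differed from Control in none by the quasi-likelihood F test of edgeR, in none by DESeq2, and in 1 at an unadjusted p under 0.05, where 1.12% of all genes tested were called by the first. On fibronectin against Control, 4 of 8 were called (31.9% of all genes), 1 of them higher (17.1%) and 3 lower (14.7%). On Geltrex against Control, 5 of 8 were called (33.0%), 2 higher (16.4%) and 3 lower (16.6%). Collagen I differed from fibronectin in 4 of 8 (45.0% of all genes), with 2 higher (22.1%) and 2 lower (22.9%). It differed from Geltrex in 4 of 8 (37.1%), with 2 higher (18.2%) and 2 lower (19.0%). Fibronectin differed from Geltrex in 1 of 8 (19.3%), which was lower (9.06%).

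A called fold of at least 2 against Control was reached by 2 of the 8 on fibronectin, Dmd and Sgca (6.66% of all genes), by Dmd alone on Geltrex (9.14%), and by none on Collagen I (0.131%). Between Collagen I and fibronectin the same 2 genes reached it (8.46%), between Collagen I and Geltrex Dmd did (9.32%), and between fibronectin and Geltrex none did (3.98%). The samples of 2 groups did not overlap for 5 of 8 genes on fibronectin (41.6% of all genes), 5 of 8 on Geltrex (50.4%), and none on Collagen I (17.3%), against Control. They did not overlap for 4 of 8 between Collagen I and fibronectin (51.4%), 5 of 8 between Collagen I and Geltrex (54.7%), and 1 of 8 between fibronectin and Geltrex (42.7%). The share of the 8 called lay above that of all genes on fibronectin and Geltrex against Control and between Collagen I and Geltrex. It lay near it between Collagen I and fibronectin and below it between fibronectin and Geltrex. Each share rests on only 8 genes, so a few genes decide its place, and no difference from all genes was tested. The median absolute log2 fold change over Control was 0.33 for the 8 genes and 0.26 for all genes on fibronectin, and 0.35 and 0.25 on Geltrex. It was 0.12 and 0.14 on Collagen I. Between Collagen I and fibronectin it was 0.33 for both, between Collagen I and Geltrex 0.38 and 0.28, and between fibronectin and Geltrex 0.10 and 0.21. These comparisons share samples and are not independent of each other.

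With the 4 surfaces of each gene ordered by mean level, few neighbors in that order were told apart. For Sgca, the steps from Collagen I down to Geltrex and from Geltrex down to fibronectin were called, and for Sgcd the step from Geltrex down to Collagen I was. Apart from the Dmd step given above, no other neighboring pair passed, and for Utrn, Dag1, Sgcb, Sntb1, and Dtna none did.

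The 3 Geltrex samples were closer to each other than those of any other group. Averaged over genes, the squared difference in counts between 2 Geltrex samples was 2.25 to 4.88 times that of counting noise alone. For pairs within the other groups it was 8.46 to 72.7 times. When the 3 were summed into 1 sample, as a step added after the data were seen, 2 of 8 genes stayed called against Control. The lone sample is then assumed to vary like those of the other groups, and the fit has fewer samples. Dmd (adjusted p = 0.0053) and Sgca (adjusted p = 0.00314) passed, and Utrn (adjusted p = 0.243), Dag1 (adjusted p = 0.267), and Sgcd (adjusted p = 0.0686) did not. Dmd and Sgca were also the 2 called between Collagen I and Geltrex, and none was called between fibronectin and Geltrex.

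Compared per kilobase of exon, Control levels were highest for Dag1 (145 CPM per kb), followed by Sgcb (58.4), Utrn (22.3), Sntb1 (17.9), Sgca (11.4), Dtna (4.39), Dmd (0.664), and Sgcd (0.549). The SDs over 3 samples were 10.3 CPM per kb for Dag1, 0.228 for Dmd, and 0.113 for Sgcd, so that Dmd and Sgcd could not be ordered. On Geltrex, Sgcd was at 1.002 ± 0.126 and Dmd at 0.113 ± 0.0187 CPM per kb (SD, n = 3). The order below Dag1 and Sgcb depends on the length used. Per kilobase of the longest coding sequence, Dag1 (345) and Sgcb (246) led in Control, followed by Sntb1 (59.3), Utrn (37.1), Dtna (33.2), Sgca (17.0), Sgcd (5.23), and Dmd (1.43).

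Other subunits of the complex were taken from a list of 10 genes, of which 7 were tested. Against Control, 2 of them rose on fibronectin (17.1% of all genes) and 3 on Geltrex (16.4%). Only rises are counted for this list, and genes of it that fell are not reported here. Sntb2, another syntrophin, rose from 75.2 CPM in Control to 119 on fibronectin and 103 on Geltrex (log2 differences 0.66 and 0.45, adjusted p = 0.000192 and 0.00331). With the index covariate 1 rose on fibronectin and 3 on Geltrex, and Sntb2 kept its call on both (0.34 and 0.24, adjusted p = 0.00841 and 0.0134). With the Geltrex samples summed, 1 rose on Geltrex, and Sntb2 was not called (adjusted p = 0.0768). Sgcz, Sntg1, and Sntg2 had at most 2 reads in any library and were not tested.

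Of 5 genes for proteins that dock on the complex, 1 rose and 2 fell on both coatings against Control. The same counts held with the index covariate. Of all genes, 17.1% rose and 14.7% fell on fibronectin, and 16.4% rose and 16.6% fell on Geltrex. Cav3, the caveolin of muscle, fell from 11.0 CPM in Control to 2.90 on fibronectin and 3.18 on Geltrex, with log2 differences of -1.92 and -1.80 (adjusted p = 7.58e-06 and 1.1e-05). Nos1, the nitric oxide synthase that syntrophin holds at the membrane, fell from 13.3 CPM to 7.25 and 2.37 CPM, which is by 0.87 and 2.49 (adjusted p = 0.000542 and 4.51e-08), and was lower on Geltrex than on fibronectin by 1.62 (adjusted p = 1.28e-05). Ank2, which encodes an ankyrin, rose by 0.89 and 0.67 (adjusted p = 2.9e-06 and 3.72e-05).

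**Figure D5:**
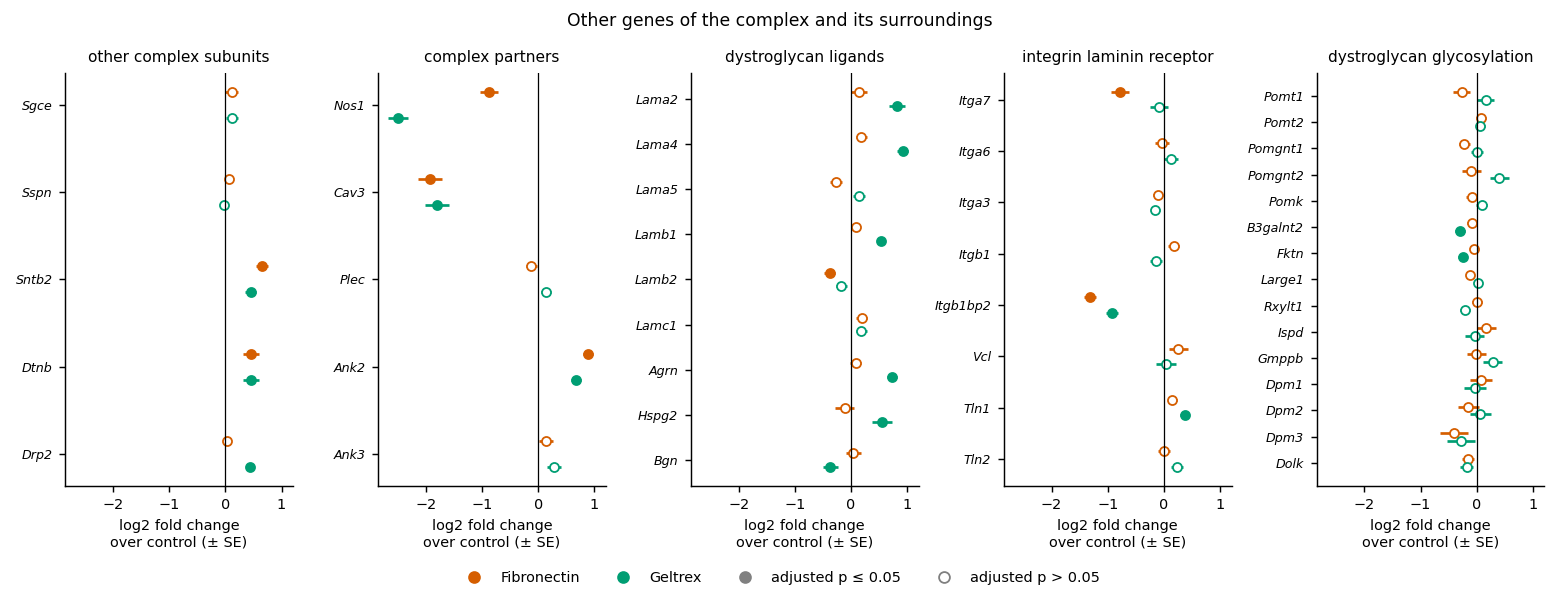
Log2 fold change over Control (x axes, with SE) on fibronectin and Geltrex for tested genes of 5 lists around the complex. Filled points have an adjusted p of at most 0.05. Cav3 lies farthest to the left on fibronectin and Nos1 on Geltrex. The laminin genes Lama2 and Lama4 lie farther right on Geltrex than on fibronectin, with filled points on Geltrex only.

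Of 9 tested ligands of dystroglycan, 5 rose (16.4% of all genes) and 1 fell (16.6%) on Geltrex against Control. On fibronectin none rose (17.1%) and 1 fell (14.7%). Lama2, the laminin chain of the muscle basement membrane, rose from 160.2 CPM in Control to 282 on Geltrex (log2 difference 0.81, adjusted p = 0.000438) and was at 176 on fibronectin. Lama4, another laminin chain, rose by 0.92 (adjusted p = 3.42e-06), and Agrn, which encodes agrin, rose by 0.73 (adjusted p = 2.02e-05). Geltrex exceeded fibronectin in 6 of the 9, Lama2, Lama4, and Agrn among them, and was lower in 1 (9.06% of all genes were called lower and 10.3% higher on fibronectin than on Geltrex). With the Geltrex samples summed, it exceeded fibronectin in 3, and Lama2 was not called (adjusted p = 0.102). With the index covariate 5 rose and none fell on Geltrex against Control, and with the Geltrex samples summed 4 rose and none fell.

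Of the enzymes that build the laminin-binding sugar of dystroglycan, 16 were tested, and 2 were lower on Geltrex than in Control, where 16.6% of all genes were lower. When single samples were left out, 0 to 3 were called there, counted in either direction. With the index covariate 3 were lower and 2 higher. On Collagen I, 6 of the 16 were higher than on fibronectin (22.1% of all genes) and none was lower (22.9%), Pomgnt2 (0.63, adjusted p = 0.00593) and Dpm2 (0.55, adjusted p = 0.026) among them, and 3 were higher than on Geltrex. Between Collagen I and fibronectin, 3 to 6 were called with single samples left out, counted in either direction. With the index covariate, 2 were higher than on fibronectin, and neither Pomgnt2 nor Dpm2 was called.

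Among the genes of the integrin that also binds laminin in muscle, Itga7 was lower on fibronectin and not on Geltrex. Its mean was 1183 CPM in Control, 1237 on Collagen I, 687 on fibronectin, and 1116 on Geltrex, with a fall of 0.78 on fibronectin (adjusted p = 0.00174) and a difference of -0.084 on Geltrex that did not pass. The difference between the 2 coatings was called (-0.70, adjusted p = 0.00612) and was lost with the Geltrex samples summed (adjusted p = 0.132). Itgb1bp2, the muscle protein melusin that binds the integrin beta chain, fell by 1.31 on fibronectin and by 0.92 on Geltrex (adjusted p = 2.28e-07 and 5.32e-06). Vcl, which encodes vinculin, was lower on Collagen I than on fibronectin by 0.66 (adjusted p = 0.00561), a call that was lost with the index covariate (adjusted p = 0.96). On this list of 8, none rose (17.1% of all genes) and 2 fell (14.7%) on fibronectin against Control. On Geltrex 1 rose (16.4%) and 1 fell (16.6%). With the index covariate, 3 fell on fibronectin, and 1 rose and 3 fell on Geltrex. Between Collagen I and fibronectin 6 were called, 3 higher (22.1%) and 3 lower (22.9%) on Collagen I. The covariate left 3 higher and none lower there.

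Across the 12 samples, the genes whose log2 CPM was most like each member differed from member to member, among 8910 candidates of at least 10 CPM. Sgca was closest to Mymk, the membrane activator of myoblast fusion (Pearson r 0.988), followed by Mybph (0.986) and Ablim3 (0.985). Dmd was closest to Pde4dip (0.993), Armcx1 (0.987), and Armcx4 (0.983), and Utrn to Birc6 (0.982), Sik2 (0.977), and Nf1 (0.974). Dag1 was closest to Fsd1l (0.973), Sgcd to Stxbp5 (0.980), Dtna to Sypl (0.974), Sntb1 to Dyrk1a (0.952), and Sgcb to Dip2c (0.951). These values describe 12 libraries that share groups and depth, and no test was made.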

How the data were processed

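RNA of differentiated C2C12GFP cells was sequenced, with 3 samples for each of the 4 plate surfaces. The authors processed reads with FastQC, Trimmomatic, HISAT2, and featureCounts, and they deposited 1 table of unnormalized read counts per gene with a column for each of 12 samples. The genome build, annotation, and strand setting are not given in the sources used here. All 55536 identifiers matched GENCODE M21 (GRCm38), which gave names, positions, and lengths.

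The quasi-likelihood F test of edgeR 4.0.16 (R 4.3.3) was the main analysis. The filterByExpr function selected genes (minimum count 10, minimum total 15), TMM scaled the libraries, and 1 model held all 4 groups (8 residual degrees of freedom). Benjamini-Hochberg adjustment covered all 14499 genes tested in each of 6 comparisons. The SE was the log2 fold change divided by the root of the F statistic. The script was tested on simulated data. The members and gene lists were chosen with earlier results of these data known. Named genes were the 8 members and, from each list, up to 3 with the largest change among those called between Collagen I and fibronectin or Geltrex. Likeness was Pearson's correlation of log2 CPM (prior count 2). Depth of 22520404 to 27351766 reads per library set the precision for low genes such as Dmd, and intervals were not computed. Alternatives were DESeq2, RLE normalization, other filters, fits of 2 groups, a replicate block, each sample left out, and 2 steps added after the data were seen (the long-transcript index and the summed Geltrex samples). Sequences and motif counts came from RefSeq windows for 6 of the 8 genes. Some genes of the lists are not reported here.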

Additional observations from a re-analysis of the deposited data

How the results depend on the processing

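Of the 8 genes, Dmd and Sgca kept direction and call on fibronectin and on Geltrex, against Control and against Collagen I, under every alternative run. Whether the replicate numbers pair the samples is not given by the labels. Deviations of same-numbered Collagen I and fibronectin samples correlated at 0.047, 0.169, and 0.225, a mean of 0.147 against -0.073 for differently numbered ones. In the other comparisons the same-numbered samples averaged near 0 or below. With the replicate number as a block, Utrn was called on fibronectin against Control (0.36, adjusted p = 0.0392), and no other call of the 8 genes changed. Utrn was also called there by DESeq2 (adjusted p = 0.049) and without a filter on low counts (adjusted p = 0.00146).

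Between Collagen I and Control, all genes called numbered 162, and 485 by DESeq2, 581 without the filter, 39 with only those 2 groups, 637 with the index covariate, and 44 to 233 with each sample left out. Without the filter 1 member was called there, Sntb1 (-0.33, adjusted p = 0.0419), and 2 were called between fibronectin and Geltrex, Sgca and Dmd (0.67, adjusted p = 0.00241). Sntb1 was then also called for fibronectin against Control (adjusted p = 0.0356) and Collagen I against Geltrex (adjusted p = 0.0347), and Dag1 between Collagen I and fibronectin when 10 counts were required in every sample (adjusted p = 0.0319). Leaving out single samples gave 3 to 5 members called for Geltrex against Control, 2 to 4 for Collagen I against Geltrex, and 0 to 1 for fibronectin against Geltrex, for which all genes called ranged from 1717 to 3436. With the Geltrex samples summed, 2102, 2167, and 722 genes and 2, 2, and 0 members were called in these 3 comparisons.

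With the index covariate, 2598 genes were called for fibronectin against Control, 2445 for Collagen I against fibronectin, and 3 members for fibronectin against Geltrex. It turned the sign of Utrn (0.053 for Collagen I against Control, -0.13 for fibronectin against Control, 0.19 for Collagen I against fibronectin), Sgcd (0.063 for Collagen I against fibronectin, -0.14 for fibronectin against Geltrex), Sntb1 (0.58 for Collagen I against fibronectin, adjusted p = 0.00421, and 0.19 against Geltrex), and Dtna (0.025 for Collagen I against Control). With only 2 groups fitted, Dtna was at 0.0012 for Collagen I against Control. The cause was not tested.

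Signs of values that were not called also turned when single samples were left out. For Collagen I against Control the ranges were -0.50 to 0.019 (Dmd), -0.24 to 0.10 (Utrn), -0.15 to 0.017 (Dag1), -0.096 to 0.027 (Sgcb), -0.018 to 0.36 (Sgcd), and -0.072 to 0.081 (Dtna). They were -0.17 to 0.046 for Sntb1 on Geltrex against Control, -0.21 to 0.11 for Sntb1 and -0.015 to 0.13 for Sgcb between Collagen I and fibronectin, and -0.033 to 0.11 for Sgcb between Collagen I and Geltrex. Between fibronectin and Geltrex they were -0.12 to 0.035 (Utrn), -0.076 to 0.034 (Dag1), and -0.038 to 0.020 (Sgcb).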
